A study of Mus musculus with 12 samples.

Results

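The inducible heat shock genes Hspa1a and Hspa1b, and 6 transcripts that copy or overlap chaperone genes, were examined in C2C12 cells differentiated with and without 4-octyl itaconate (OI). The members were taken by gene symbol: Hspa1a, Hspa1b, Gm20481, Gm15459, Gm8355, Gm6210, Gm25745 and 1810014B01Rik. They are 8 of the 27942 genes analysed, and all 8 were among the 1737 genes that passed the filter on low values. C2C12 is a line of mouse muscle precursor cells, which form multinucleated myotubes in low serum, and OI is a cell-permeable form of the metabolite itaconate known to activate the transcription factor NRF2. Both groups were grown to 80% density in 10% fetal bovine serum and then held for 7 days in 2% horse serum. The OI group received OI at 25 µmol/L and the control group received none, with 3 libraries each, and the labels name no genetic change in either. Whether the 3 libraries of a group came from separate cultures is not stated, so the p-values measure the spread between libraries, which may be technical. A second set of 3 OI and 3 control samples was not analysed here.

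HSP70 chaperones bind exposed hydrophobic stretches of unfolded proteins and release them in cycles of ATP hydrolysis. Hspa8 encodes the constitutive cytosolic form, Hsc70, while Hspa1a and Hspa1b encode the stress-induced form, whose transcription is switched on by heat shock factor 1 when unfolded proteins accumulate. Hsp90b1 encodes Grp94, also called endoplasmin, the HSP90 chaperone of the endoplasmic reticulum, which folds secreted and membrane proteins and is induced by the unfolded protein response. In muscle, chaperones of these families help to fold and renew the proteins of the contractile apparatus. Genes with Ensembl identifiers between ENSMUSG00000000320 and ENSMUSG00000083778, which include Hspa8 and Hsp90b1 themselves, were not analysed here, so for these 2 chaperones the values are those of their copies and overlapping transcripts.

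The copies are so alike that a short read from an identical stretch cannot be assigned to 1 of them. The sources used here do not say how the counting treated such reads. Read numbers recovered from the FPKM values of Hspa1a, Hspa1b, Gm15459, Gm8355 and Gm6210 held no fractions (within 0.000572 of a whole read). How often such reads arose, and where they were counted, was not tested. The stretches shown are the 60-base windows of the coding sequence in which the copies differ most (GENCODE M21, GRCm38), and they are shown because the differing bases, in capitals, are all that separates the members there. Capitals in a copy mark bases that differ from the parent, and capitals in the parent mark positions at which any copy differs. The first set covers positions 405 to 464 of the Hspa8 coding sequence, with 1 difference in Gm15459, 4 in Gm8355 and 4 in Gm6210.
Hspa8: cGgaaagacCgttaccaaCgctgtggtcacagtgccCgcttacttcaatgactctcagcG
Gm15459: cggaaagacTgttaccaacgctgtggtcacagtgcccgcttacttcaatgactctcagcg
Gm8355: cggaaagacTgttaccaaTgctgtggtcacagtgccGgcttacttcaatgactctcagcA
Gm6210: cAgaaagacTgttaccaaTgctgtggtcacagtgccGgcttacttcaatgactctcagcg
The other set covers positions 1357 to 1416 of the Hspa1b coding sequence, in which Hspa1a has 2 differences.
Hspa1b: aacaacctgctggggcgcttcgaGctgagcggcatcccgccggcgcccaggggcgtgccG
Hspa1a: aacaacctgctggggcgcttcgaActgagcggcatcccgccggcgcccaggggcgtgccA
Over whole coding sequences, Hspa1b and Hspa1a were 99.5% identical, with 7 substitutions and 3 gap positions in 1926 aligned positions and an identical run of 638 bases. Their full transcripts were only 88.6% identical, since the untranslated parts diverge. Gm15459 matched the Hspa8 coding sequence at 99.7% (5 substitutions in 1938 positions), Gm8355 at 98.7% (25 substitutions) and Gm6210 at 98.6% (28 substitutions). Hspa8 and Hspa1b, in contrast, were 75.0% identical, with no identical run longer than 23 bases.

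The promoters of the inducible pair are shown because both genes had higher values in every OI library than in any control library. The same held for 11.1% of all tested genes. Neither gene passed the adjusted test (limma adjusted p = 0.156 for Hspa1b and 0.576 for Hspa1a), so the promoters are shown as sequence only. They are the 250 bases before each annotated start on the minus strand, from the RefSeq table of build GRCm38.p6, at chr17:34972157-34972406 for Hspa1a and chr17:34959239-34959488 for Hspa1b. Capitals mark the 3 bases at which they differ.
Hspa1a promoter: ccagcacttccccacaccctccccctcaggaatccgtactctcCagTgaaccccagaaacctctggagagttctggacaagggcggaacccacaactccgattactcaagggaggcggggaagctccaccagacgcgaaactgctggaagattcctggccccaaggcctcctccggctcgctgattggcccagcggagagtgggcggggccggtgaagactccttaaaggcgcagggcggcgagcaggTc
Hspa1b promoter: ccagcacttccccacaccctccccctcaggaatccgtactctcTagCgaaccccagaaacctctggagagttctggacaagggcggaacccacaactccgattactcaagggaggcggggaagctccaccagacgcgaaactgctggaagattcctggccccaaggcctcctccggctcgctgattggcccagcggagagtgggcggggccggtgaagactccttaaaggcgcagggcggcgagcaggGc
Each holds 1 match to GAANNTTC, a pair of heat shock element units, starting at position -104 from the RefSeq start, a motif found on either strand in 7.86% of the 32851 promoter windows of the table, which run from 250 bases before to 50 after a start. Each also holds 1 match to CCAAT at position -67, a motif in 37.4% of promoters. Neither window holds a run of 3 alternating heat shock element units (0.603% of promoters), TATAAA (13.6%) or TGACNNNGC (12.4%), the core of the antioxidant response element to which NRF2 binds. The matches to GAANNTTC and CCAAT do not overlap, and a match or its absence describes these letters only.

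At a limma adjusted p of 0.05 (Benjamini-Hochberg over the 1737 genes), 0 of the 8 members passed, against a background of 2.76% of the genes. The background was 1.15% for genes higher in OI (20 genes) and 1.61% for genes lower in OI (28 genes). Unadjusted p-values under 0.05 were seen for 2 of the 8 members, Gm15459 and Hspa1b, against 17.8% of all genes. The OI and control values did not overlap in 3 members, Gm15459, Hspa1b and Hspa1a, all with OI higher, against 23.6% of all genes in either direction and 11.1% with OI higher. The log2 fold change on the log2(FPKM + 1) scale was above 0 for 5 of the 8 members with a median of 0.11, beside 774 of the 1737 genes and a median of -0.02. FPKM scales the fragments of a gene to its length and to the size of the library, so levels can be set side by side between genes. In bulk RNA, fewer cells that express a gene and less RNA per cell cannot be told apart.

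**Figure D1:**
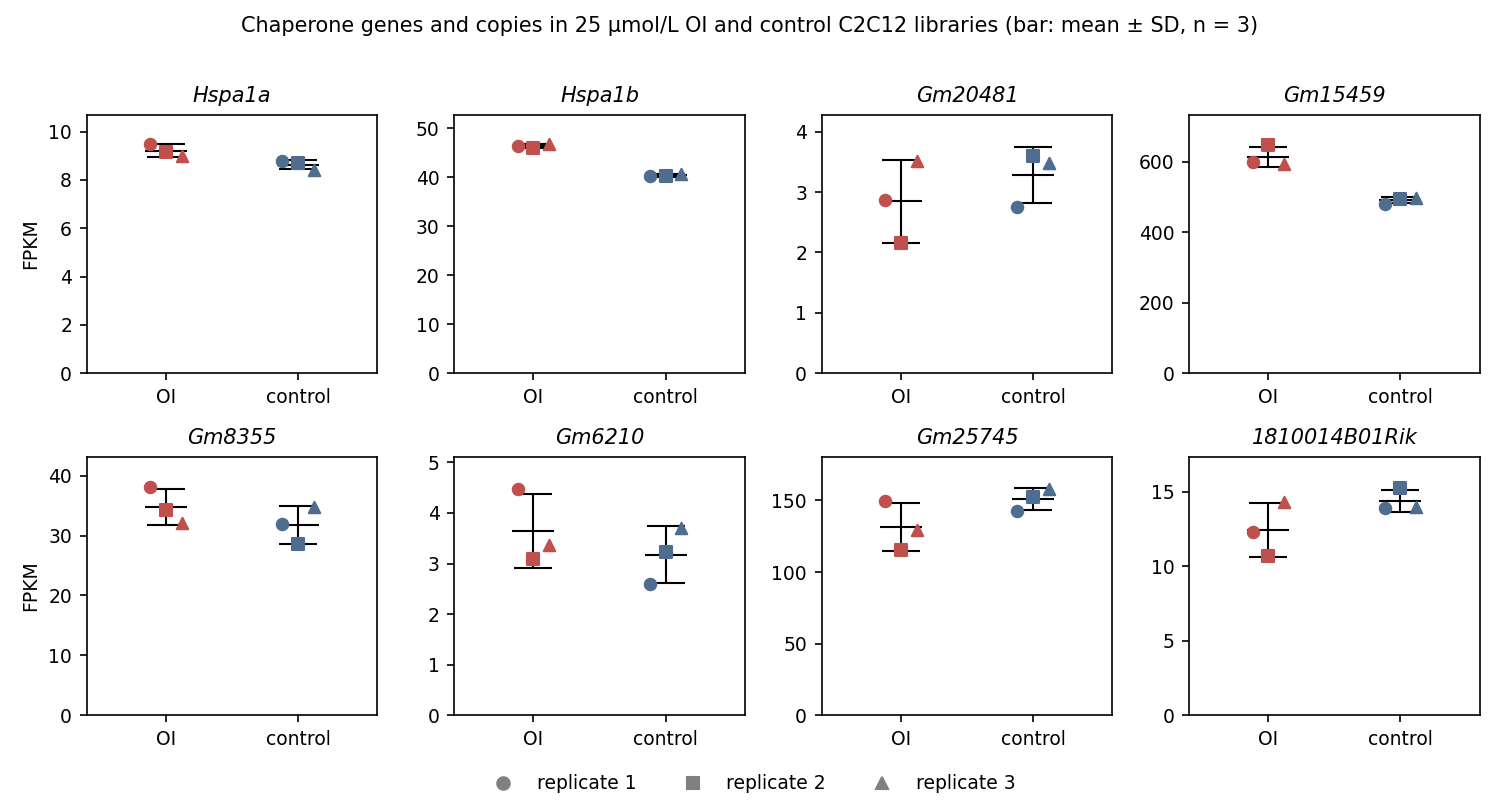
FPKM of the 8 genes in each of the 3 OI libraries (left, red) and 3 control libraries (right, blue), with black bars for the mean ± SD; each panel has its own vertical axis from 0. Every OI library lies above every control library for Hspa1a, Hspa1b and Gm15459, and the groups overlap in the other 5 panels.

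Hspa1b, the more abundant transcript of the inducible pair, was slightly higher with OI, by an amount that exceeded the spread between libraries but did not pass the adjusted test. Hspa1b (ENSMUSG00000090877, chr17:34956436-34959238, minus strand, 1 exon) was at 46.4, 46.0 and 46.7 FPKM in the OI libraries and at 40.2, 40.3 and 40.8 FPKM in the control libraries. The libraries of each group lay within 1 FPKM of each other and the groups were apart. The means were 46.4 ± 0.352 FPKM with OI and 40.4 ± 0.299 FPKM in control (SD, n = 3 each), a ratio of 1.15. Its log2 fold change was 0.19 ± 0.06 (SE), with a 95% confidence interval from 0.06 to 0.33, an unadjusted p of 0.0136 and a limma adjusted p of 0.156. Between 3365 and 4681 reads in OI libraries and between 2755 and 3444 in control libraries lay behind these values. The coefficient of variation between libraries was 0.758% with OI and 0.739% in control, below the 1.58% and 1.78% that counting error alone gives at those read numbers. The small SD of 3 libraries is therefore itself imprecise.

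Hspa1a, which encodes nearly the same protein from a neighbouring locus, showed a smaller difference in the same direction. Hspa1a (ENSMUSG00000091971, chr17:34969190-34972156, minus strand, 1 exon) was at 9.50, 9.16 and 8.99 FPKM in the OI libraries and at 8.77, 8.70 and 8.43 FPKM in the control libraries. The lowest OI library stood just above the highest control library. On the log2 scale the fold change was 0.08 ± 0.07 (SE), with a 95% confidence interval from -0.08 to 0.25 and a limma adjusted p of 0.576. Hspa1b stood at 4.89, 5.03 and 5.20 times the FPKM of Hspa1a in the OI libraries and at 4.59, 4.63 and 4.84 times in the control libraries. This ratio was higher in each OI library than in any control library, which is a description of libraries and was not tested. The lowest OI ratio, 4.89, stood just above the highest control ratio, 4.84. Counting error alone was 3.45% with OI and 3.73% in control for Hspa1a.

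Gm20481 is annotated as protein-coding on the strand opposite to Hspa1a, and both of its exons lie wholly within the single exon of Hspa1a. Gm20481 (ENSMUSG00000092609, chr17:34969912-34972136, plus strand, 564 exonic bases) was at 2.87, 2.15 and 3.52 FPKM in the OI libraries and at 2.76, 3.60 and 3.49 FPKM in the control libraries. The groups overlapped, and the lowest and the second highest values were both OI libraries. The fitted log2 fold change was -0.16 ± 0.16 (SE), with a 95% confidence interval from -0.55 to 0.22 and a limma adjusted p of 0.654. It was -0.03 without OI replicate 2, -0.29 without OI replicate 3, -0.26 without control replicate 1 and -0.11 without control replicate 2. Only 44 to 52 reads in OI libraries and 38 to 62 in control libraries were counted, which gives a counting error of 14.3% with OI and 14.1% in control. The sources used here do not name the strand setting of the counting, so reads of Gm20481 and Hspa1a cannot be told apart with certainty.

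**Figure D2:**
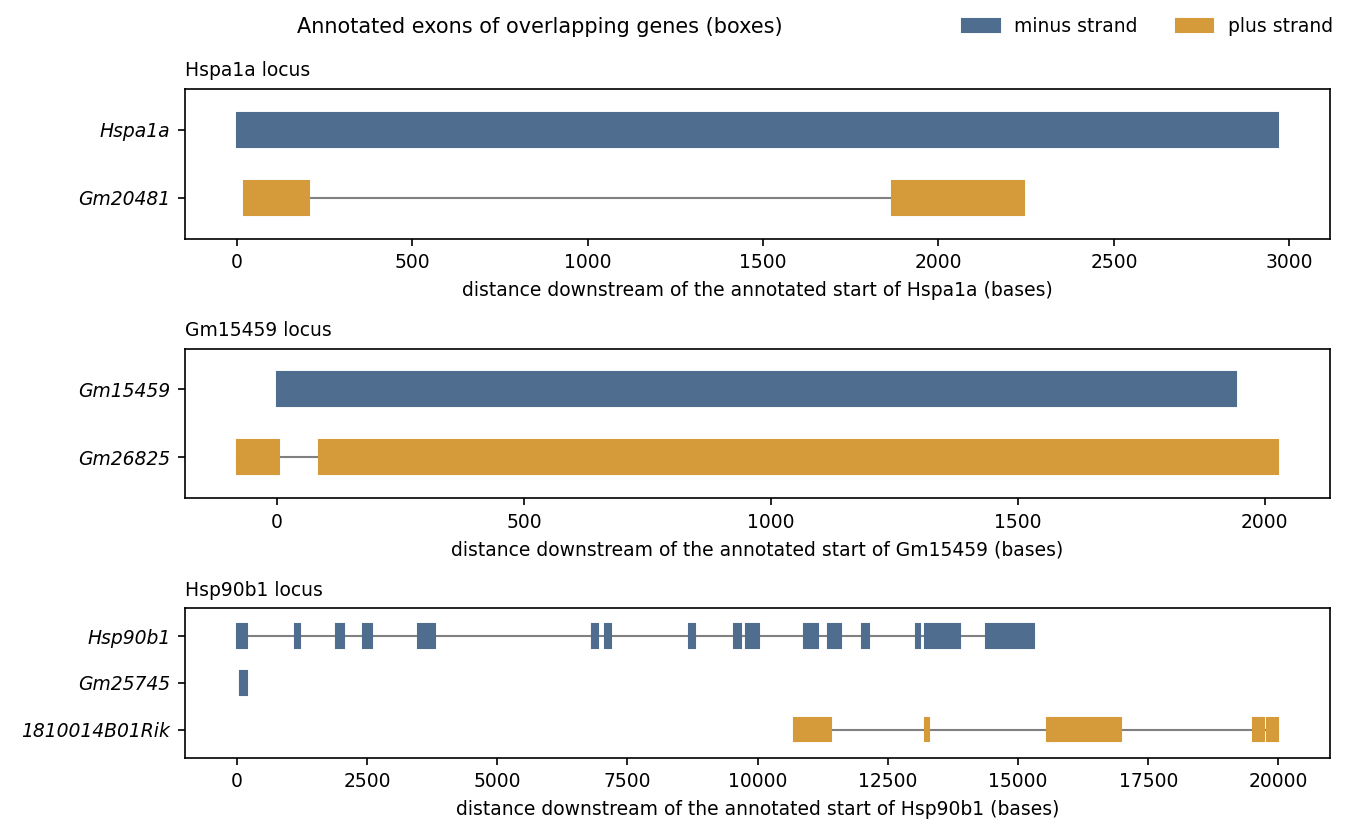
Annotated exons (boxes) and introns (lines) in GENCODE M21 at 3 loci, with the distance in bases downstream of the start of Hspa1a, Gm15459 and Hsp90b1 on the horizontal axes; blue is the minus and yellow the plus strand. Gm20481 lies inside Hspa1a, Gm26825 covers nearly all of Gm15459, Gm25745 lies in the first exon of Hsp90b1, and 1810014B01Rik runs past its end on the opposite strand.

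Among the members that copy Hspa8, Gm15459 was by far the most abundant, and it had the largest ratio of OI to control among all members. Gm15459 (ENSMUSG00000100801, chr5:5781615-5783555, minus strand, 1 exon) is a processed pseudogene, a copy made from reverse-transcribed messenger RNA. It was at 599, 646 and 594 FPKM in the OI libraries and at 480, 495 and 496 FPKM in the control libraries. All 3 OI libraries were above all 3 control libraries, with replicate 2 the highest of the OI group. The means were 613 ± 28.9 FPKM with OI and 491 ± 8.77 FPKM in control (SD, n = 3 each), a ratio of 1.25. Its log2 fold change was 0.32 ± 0.07 (SE), with a 95% confidence interval from 0.16 to 0.48 and an unadjusted p of 0.00274, rank 58 of the 1737 genes. The limma adjusted p was 0.0819, and it ranged from 0.0149 to 0.370 over the processing alternatives, under 3 of which Gm15459 passed. These were a filter at 5 FPKM (limma adjusted p = 0.0340), limma with a robust variance prior (0.0298) and limma voom on recovered read numbers (0.0149).

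Gm26825, a long intergenic RNA on the strand opposite to Gm15459, shares 1860 of its 2026 exonic bases with it and had a similar number of reads. The sequence of Gm26825, compared on either strand, was also 99.6% identical to Hspa8 over 95.8% of its transcript. Gm26825 (chr5:5781530-5783636, plus strand) was at 555, 584 and 544 FPKM in the OI libraries and at 446, 463 and 473 FPKM in the control libraries, with no overlap. The fitted log2 fold change was 0.28 ± 0.07 (SE) with a limma adjusted p of 0.101. Per library, its recovered reads were 0.966, 0.943 and 0.956 times those of Gm15459 with OI and 0.969, 0.976 and 0.995 times in control. This ratio was lower in each OI library than in any control library, which is a description and was not tested. The highest OI ratio, 0.966, stood just below the lowest control ratio, 0.969. Counting error alone was 0.536% with OI and 0.619% in control for Gm26825. With the strand setting of the counting unknown, how many reads were counted for both genes was not tested.

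The other members that copy Hspa8 had lower levels and overlapping groups. Gm8355 (ENSMUSG00000093798, chr10:14745362-14747302, minus strand) was at 38.1, 34.3 and 32.2 FPKM in the OI libraries and at 31.9, 28.5 and 34.9 FPKM in the control libraries. Its highest library was OI and its lowest was control, and control replicate 3 exceeded the other two OI libraries. For Gm8355 the log2 fold change was 0.13 ± 0.10 (SE), with a 95% confidence interval from -0.12 to 0.38 and a limma adjusted p of 0.576. This value was 0.07 without OI replicate 1, 0.06 without control replicate 2 and 0.20 without control replicate 3. Gm6210 (ENSMUSG00000107951, chr6:75296118-75298059, minus strand) was at 4.47, 3.09 and 3.37 FPKM in the OI libraries and at 2.59, 3.22 and 3.71 FPKM in the control libraries. Its groups overlapped across most of their range, with 168 to 279 reads in OI libraries and 123 to 216 in control libraries. The log2 fold change was 0.15 ± 0.15 (SE), with a 95% confidence interval from -0.22 to 0.52 and a limma adjusted p of 0.670. It was 0.03 without OI replicate 1, 0.24 without OI replicate 2, 0.05 without control replicate 1 and 0.24 without control replicate 3. Both intervals contain the value of Gm15459.

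The ratios between the copies overlapped between the groups. Gm15459 stood at 15.7, 18.8 and 18.5 times the FPKM of Gm8355 in the OI libraries and at 15.0, 17.3 and 14.2 times in the control libraries, and these ranges overlap. Gm8355 stood at 8.51, 11.1 and 9.55 times the FPKM of Gm6210 in the OI libraries and at 12.3, 8.85 and 9.40 times in the control libraries, again with overlap. The copies had the same order of level as of likeness to Hspa8, Gm15459 first and Gm6210 last, in all 6 libraries. Gm15459 differs from Hspa8 at the fewest positions and Gm6210 at the most, and the part that reads of Hspa8 have in these levels was not tested.

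At the Grp94 locus on chromosome 10, the pair of overlapping transcripts had lower means with OI, and neither passed the test. Gm25745 (ENSMUSG00000092686, chr10:86705316-86705448, minus strand) is annotated as a microRNA gene of 133 bases and has no entry in the RefSeq miRNA table used. All 133 bases lie in the first exon of Hsp90b1 on the same strand, 40 of them coding and 93 untranslated. Reads from that part of Hsp90b1 messenger RNA would align to the same bases, and how many were counted for Gm25745 was not tested. It was at 149, 116 and 129 FPKM in the OI libraries and at 142, 152 and 158 FPKM in the control libraries. OI replicate 1 lay within the control range, while OI replicates 2 and 3 were below all control libraries. Its log2 fold change was -0.21 ± 0.11 (SE), with a 95% confidence interval from -0.47 to 0.06 and a limma adjusted p of 0.387. Leaving out OI replicate 2 gave -0.12, and the other libraries left out in turn gave values from -0.30 to -0.17.

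The other transcript of the locus, 1810014B01Rik (ENSMUSG00000097412, chr10:86685525-86694806, plus strand), is a transcribed unprocessed pseudogene. It shares 415 of its 2652 exonic bases with exons in the 3′ part of Hsp90b1, which lies on the opposite strand. It was at 12.3, 10.7 and 14.3 FPKM in the OI libraries and at 13.9, 15.3 and 14.0 FPKM in the control libraries. OI replicate 3 lay within the control range and OI replicates 1 and 2 were below it. The fitted log2 fold change was -0.20 ± 0.11 (SE), with a 95% confidence interval from -0.48 to 0.07 and a limma adjusted p of 0.404. Leaving out OI replicate 2 gave -0.11, and the other libraries left out in turn gave values from -0.30 to -0.16. Among the OI libraries, replicate 2 was the lowest for both transcripts, while the highest was replicate 1 for Gm25745 and replicate 3 for 1810014B01Rik.

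By level, the members spanned more than 2 orders of magnitude per unit of length. The order of mean FPKM was Gm15459, Gm25745, Hspa1b, Gm8355, 1810014B01Rik and Hspa1a in both groups. The last places were Gm6210 at 3.65 ± 0.729 and Gm20481 at 2.85 ± 0.685 FPKM with OI, against 3.17 ± 0.560 and 3.28 ± 0.459 FPKM in control (SD, n = 3 each). These neighbours did not differ beyond their spread, and the ranges of the other neighbours did not overlap within a group, with OI and in control. Gm25745 is shorter than the other members, and its level per length rests on 442 to 638 reads in OI libraries and 463 to 631 in control libraries. For 1810014B01Rik the deposited length is 1665 bases, against 2652 exonic bases in GENCODE M21. Whether its place next to Hspa1a depends on the length used was not tested.

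Across the 103 genes of the chaperone lists (HSP70, HSP90, HSP40, small heat shock proteins, chaperonins, co-chaperones with heat shock factors, and endoplasmic reticulum folding), 3 were analysed under their own name. These were Hspa1a, Hspa1b and Hspa14, an HSP70 relative associated with the ribosome. Hspa14 was at 10.5, 10.2 and 10.2 FPKM in the OI libraries and at 9.81, 10.3 and 9.61 FPKM in the control libraries, which overlapped (limma adjusted p = 0.771). With copies and overlapping transcripts included, 20 tested genes were tied to the lists, of which 0 were higher and 0 were lower at a limma adjusted p of 0.05, beside 2.76% of all genes in either direction. An unadjusted p under 0.05 was seen in 5 of the 20, beside 17.8% of all genes. Of these 20, 13 had a log2 fold change above 0 with a median of 0.11, beside 774 of the 1737 genes and a median of -0.02. The HSP70 list had 8 tested genes with a median log2 fold change of 0.14 and 7 above 0, and the HSP90 list had 4 with a median of -0.15 and 1 above 0. The HSP40 list had 5, with a median of 0.21 and 4 above 0, and the co-chaperone list had 2, with a median of 0.04 and 1 above 0. The chaperonin list had 1, Gm5644, a copy of Pfdn5, at -0.05, and the lists of small heat shock proteins and of endoplasmic reticulum folding had no tested gene. Several of these genes copy or overlap the same parent and may share its reads, which was not tested. The counts therefore cannot be taken as those of independent genes.

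**Figure D3:**
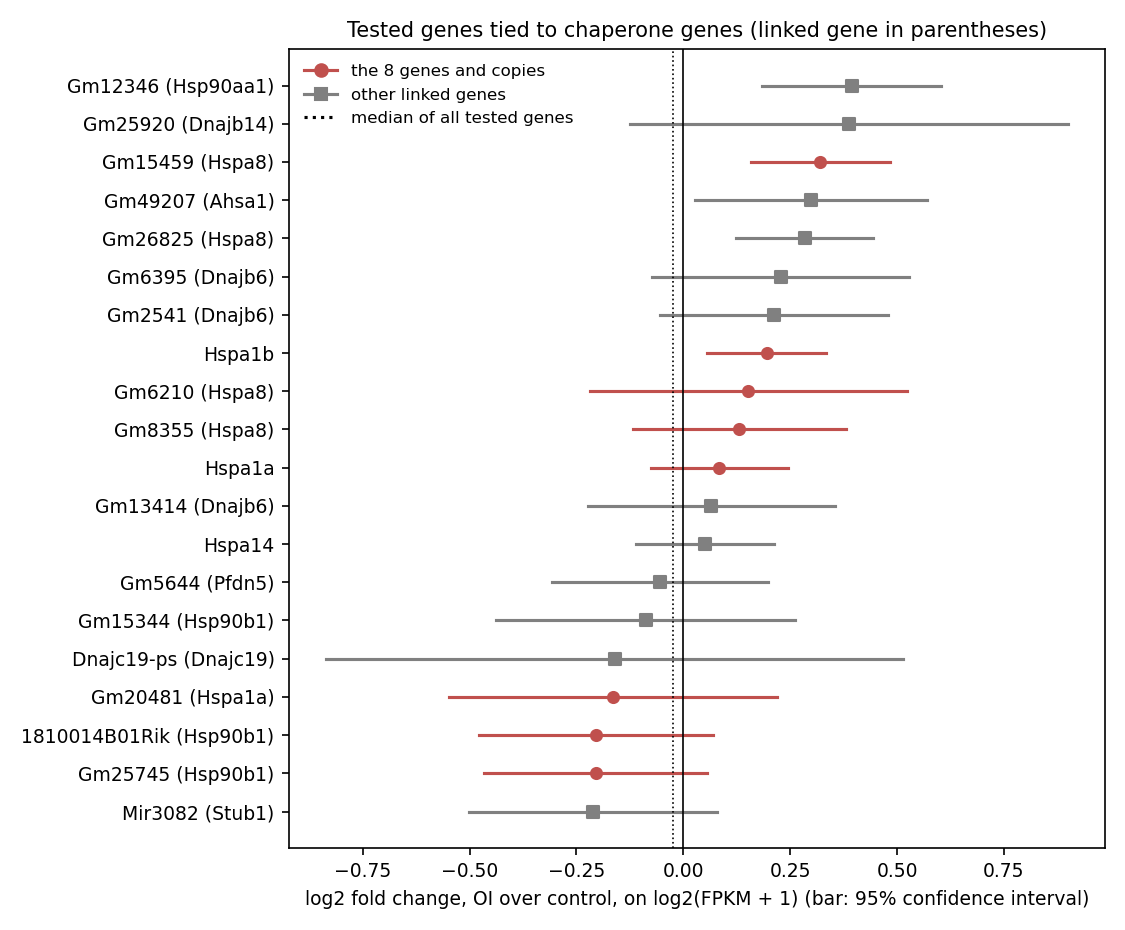
Log2 fold change of OI over control on the log2(FPKM + 1) scale for the 20 tested genes tied to chaperone genes, with 95% confidence intervals as bars; red circles are the 8 members, grey squares the other 12, and the dotted line is the median of all tested genes. Intervals clear of 0 belong to Gm12346, Gm15459, Gm49207, Gm26825 and Hspa1b, all above 0.

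The highest fold change among the 20 belonged to a copy of a cytosolic HSP90 gene, on the other side of 0 from the Grp94 transcripts. Gm12346, a transcribed processed pseudogene that is 99.5% identical to Hsp90aa1, the inducible cytosolic HSP90, was at 33.3, 28.4 and 30.4 FPKM in the OI libraries and at 23.7, 21.5 and 24.0 FPKM in the control libraries. The groups did not overlap. Its log2 fold change was 0.39 ± 0.09 (SE), with an unadjusted p of 0.00348 and a limma adjusted p of 0.0946. The remaining transcript of the Grp94 locus, Gm15344, which shares 84 of its 421 exonic bases with Hsp90b1 on the same strand, had a log2 fold change of -0.09 ± 0.14 (SE) and a limma adjusted p of 0.825. Gm49207, a copy of part of the HSP90 co-chaperone gene Ahsa1, had a log2 fold change of 0.30 ± 0.11 (SE) and a limma adjusted p of 0.249, with no overlap between groups.

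The values of Hspa1b and Gm15459 ran together over the 6 libraries, with a Pearson r of 0.95 on the log2(FPKM + 1) scale. Gm20481 and 1810014B01Rik had an r of 0.90. These correlations describe 6 libraries that differ by group, and depth and treatment are shared by both values of each pair. Outside the members, the genes most like Hspa1b were the processed pseudogenes Gm17046 (r = 0.99) and Gm6644 (r = 0.98) and the processed transcript AI506816 (r = 0.99). For Gm15459 they were Zfp87 (r = 0.99), Gm21655 (r = 0.99) and again Gm6644 (r = 0.99). These 5 genes were picked by r over the same 6 libraries. Both members were higher in every OI library, so a rise in these genes largely follows from the choice. Zfp87 and Gm21655 had log2 fold changes of 0.20 and 0.66 (limma adjusted p = 0.230 and 0.0579). The other 3 passed a limma adjusted p of 0.05, against a background of 1.15% for genes higher in OI. AI506816 was at a mean of 49.9 FPKM with OI against 33.2 FPKM in control (limma adjusted p = 0.0114). Gm6644 rose to 5.82 FPKM with OI against 2.58 FPKM in control (limma adjusted p = 0.00718), and Gm17046 rose to 2.36 FPKM with OI against 1.18 FPKM in control (limma adjusted p = 0.0193). The closest genes to the others were Gm2115 for Hspa1a (r = 0.97), Gm26786 for Gm20481 (r = 0.98), Gm45515 for Gm8355 (r = 1.00), Gm5869 for Gm6210 (r = 0.98), Gm4045 for Gm25745 (r = 0.99) and Gm26737 for 1810014B01Rik (r = 0.99).

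Library sizes recovered from the FPKM values were between 25684000 and 36274000 reads or fragments with OI and between 24441000 and 30522000 in control. The genes analysed took 5.33% to 5.77% of the reads in OI libraries and 5.25% to 23.9% in control libraries, the highest being control replicate 1. AY036118 alone took 0.0720% to 0.226% of the reads in OI libraries and 0.0775% and 0.0638% in control replicates 2 and 3. In control replicate 1 it took 6.53%. Without that library, the log2 fold change was 0.19 for Hspa1b, 0.09 for Hspa1a, 0.31 for Gm15459, 0.14 for Gm8355, -0.25 for Gm25745 and -0.23 for 1810014B01Rik, each within 1.5 times the value with it. It moved further for Gm6210, to 0.05 against 0.15 with it, and for Gm20481, to -0.26 against -0.16 with it. Of 18 marker genes for myotubes, myoblasts, fibroblasts and adipocytes, 2 were analysed. Tnnc1, a troponin subunit of the contractile apparatus, was at 24.7, 23.0 and 21.9 FPKM in the OI libraries and at 140, 110 and 128 FPKM in the control libraries (limma adjusted p = 0.000188). H19, a long non-coding RNA of developing muscle, was at 24.1, 32.1 and 25.9 FPKM in the OI libraries and at 136, 131 and 131 FPKM in the control libraries (limma adjusted p = 0.00023). Both fell with OI, and the part of the state of differentiation in the values of the chaperone genes and copies was not tested.

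**Figure D4:**
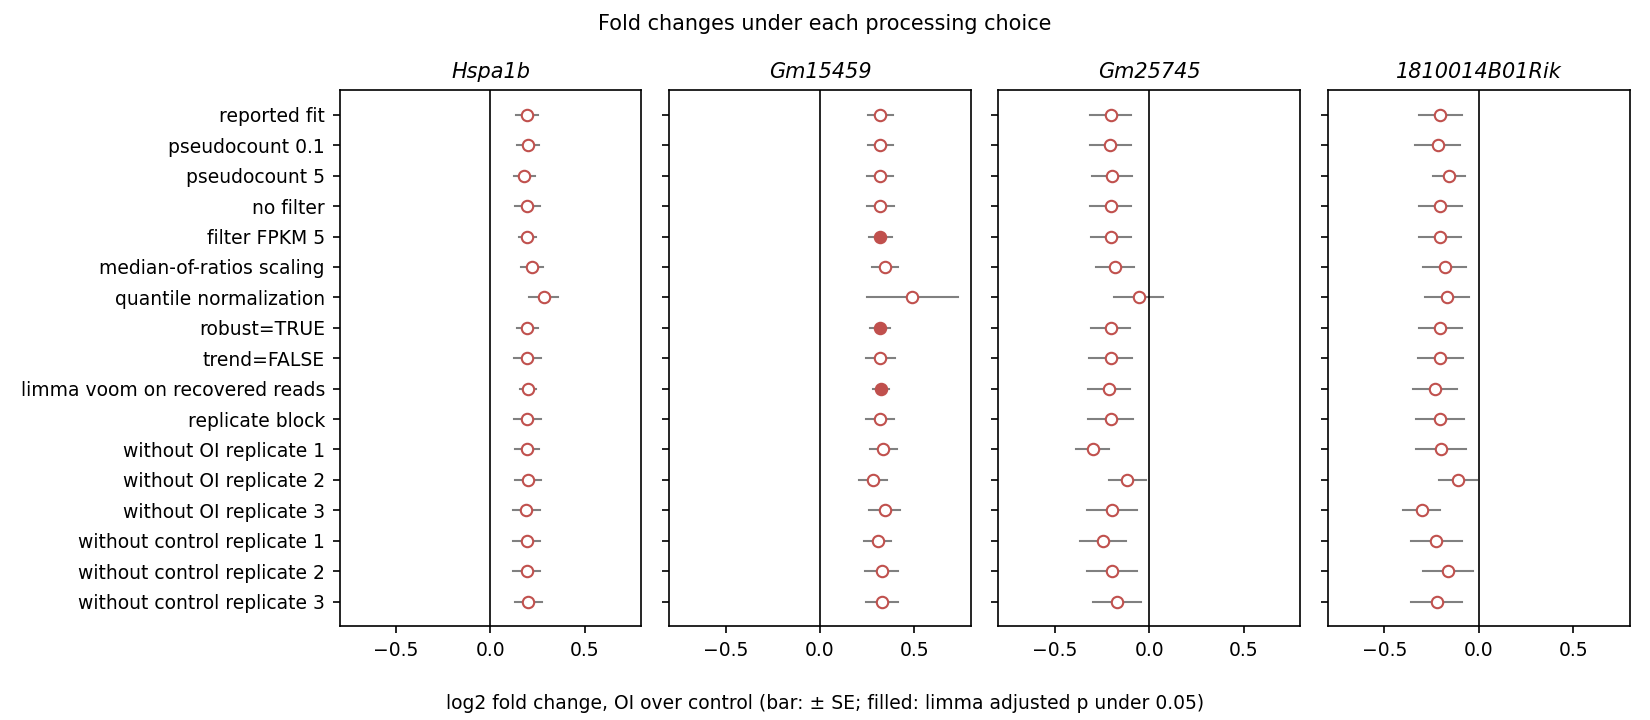
Log2 fold change of OI over control (horizontal axis) with its SE for Hspa1b, Gm15459, Gm25745 and 1810014B01Rik under the reported fit and each processing alternative (rows); filled points have a limma adjusted p under 0.05. Only Gm15459 has filled points, under 3 alternatives, and every point of Hspa1b and Gm15459 is above 0 and every point of Gm25745 and 1810014B01Rik below it.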

How the data were processed

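RNA-seq libraries of C2C12 cells, 3 with OI and 3 control, were compared on day 7. Per the labels' protocols, libraries came from total RNA with a TruSeq kit. Per the submitters' processing notes, cutadapt 2.7, HISAT2 2.1.0 and StringTie 1.3.3b were used with build mm10. The authors deposited FPKM values, 1 table per sample with 27943 rows, of which 1 with broken annotation was left out. The values differed between all libraries, each of which was counted as 1 sample.

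In 1-exon genes, multiplying FPKM by gene length gave whole multiples of a step fixed for each library (100% within 0.01), from which library sizes and read numbers were recovered. Those of 1810014B01Rik were not whole and are not given. For limma voom, the values of every gene were rounded to whole numbers, also in genes with more exons, where they may not be read numbers. Counting errors cover counting only. Genes with FPKM of at least 1 in at least 3 libraries were fitted on log2(FPKM + 1) with limma 3.58.1 (R 4.3.3, trend=TRUE, two-sided), and p-values were adjusted over all of them by Benjamini-Hochberg. The scale understates changes at low levels. The script was tested on simulated data.

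Members and lists were chosen with earlier results of these data known. Genes named are every member, list genes and tested genes sharing exonic bases with one or at least 90% identical over 80% of the transcript (BLAST+ 2.17.0, E-value at most 1e-10, best match), and the 3 tested genes with the highest Pearson r to a member. Sequences came from GENCODE M21 and RefSeq (GRCm38.p6). Alternatives were other pseudocounts, filters, scalings and variance priors, limma voom, a replicate block and leaving out each library.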

Additional observations from a re-analysis of the deposited data

How the results depend on the processing

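For the 8 chaperone genes and copies, all 126 fold changes under the alternatives kept the direction of the reported value and 123 kept their side of the threshold. The exceptions were Gm15459 with a filter at 5 FPKM, with a robust variance prior and with limma voom on recovered reads, each of which gave 1 member past the threshold in place of 0. The filter at 5 FPKM tested 591 genes and left out Gm20481 and Gm6210. Under quantile normalization the log2 fold change of Gm15459 was 0.49, against 0.32 as reported, with an SE of 0.24, and that of Gm25745 was -0.06, against -0.21 as reported. Leaving out each library in turn gave 0 members past the threshold each time, with log2 fold changes from 0.28 to 0.34 for Gm15459, 0.19 to 0.20 for Hspa1b and 0.06 to 0.10 for Hspa1a. The other members moved more, from 0.06 to 0.20 for Gm8355, 0.03 to 0.24 for Gm6210, -0.29 to -0.03 for Gm20481, -0.30 to -0.12 for Gm25745 and -0.30 to -0.11 for 1810014B01Rik. Over all tested genes, 48 passed as reported, 14 without a filter, where 10948 genes were tested, and between 15 and 27 when 1 library was left out. With the replicate number as a block, 17 genes and 0 members passed. The labels do not say what a replicate number marks, so the numbers were not taken to pair libraries. Same-numbered libraries had correlations of 0.0469, 0.138 and -0.0840 in their deviations from the group means. Replicate 2 alone matched its own number best, and so few libraries cannot decide on pairing. Depth limits Gm20481 and Gm6210 most, with 38 to 62 and 123 to 279 reads a library.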
